A study of Homo sapiens with 8 samples.

Results

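Cytochrome P450 genes were taken as all protein-coding genes of GENCODE 44 whose symbol is CYP followed by a family number, a subfamily letter and a member number. This gave 56 genes of 20033 protein-coding ones located on chromosomes 1-22, X or Y. They comprised 3 genes of family CYP1, 17 of CYP2, 4 of CYP3, 12 of CYP4, 2 of CYP7, 1 of CYP8, 3 of CYP11, 3 of CYP27, 1 of CYP51 and 10 of other families. Each was followed through the accessible regions of 1 bulk ATAC-seq library. ATAC-seq uses the Tn5 transposase to cut and tag DNA that is not covered by nucleosomes, so that a peak of fragments marks an open region.

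The library was made from HepG2 cells, an established human liver cancer line of wild-type genotype, which were fixed with 0.1% formaldehyde (FA) and cryopreserved. The study held 8 libraries, which differed in FA concentration and in freezing by cryopreservation or flash freezing, to learn how preservation affects data quality. Peaks of the other 7 libraries were not analysed here, and the one used had no replicate, so no condition was compared and no test between samples was made. A TSS peak was a peak overlapping a window that reached 1000 bp up- and downstream of the transcription start site (TSS) of the canonical transcript, and the neighbourhood of a gene was its body with 20 kb to either side.

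Cytochrome P450 enzymes are heme proteins that insert an oxygen atom into small lipophilic molecules. Those in the endoplasmic reticulum receive electrons from POR and cytochrome b5, those in mitochondria from ferredoxin. The liver is the main site of drug oxidation by families CYP1, CYP2 and CYP3 and of bile acid synthesis from cholesterol, and HepG2 cells are known to contain far less of many drug-oxidizing P450 enzymes than primary hepatocytes do. Many of the genes stand in tandem clusters of closely similar copies.

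The peaks that the description below returns to most often are shown here by the sequence around their summits, written 5′ to 3′ on the strand of the gene and read from the GRCh38 genome, with untranslated exon bases trimmed. Capitals mark matches to the motif named for each, which is a description of letters and not of a bound site. The stretch at CYP39A1 lies at chr6:46652846-46652914 on the minus strand and is shown because it carried the strongest TSS peak of the family. The stretch at CYP8B1 lies at chr3:42875899-42875934 on the minus strand and is the upstream part of a window whose summit lay 5 bp from the TSS. Of the 4 peaks nearest to CYP1A1, the TSS peak and the one farther upstream held the xenobiotic response element core TNGCGTG, at chr15:74726004-74726104 and chr15:74731044-74731144 on the minus strand. The windows upstream of CYP3A4 (chr7:99795217-99795317, minus strand) and CYP3A5 (chr7:99693501-99693601, minus strand) held the forkhead motif TGTTTNC. The window at CYP27C1 (chr2:127231575-127231675, minus strand) held TGTTTNC overlapping the C/EBP motif TTGCNNAA, and that at CYP2E1 (chr10:133520282-133520382, plus strand) held the CTCF core CAGNNGGCG.
CYP39A1, promoter: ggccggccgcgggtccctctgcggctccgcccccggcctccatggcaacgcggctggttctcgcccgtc
CYP8B1, promoter: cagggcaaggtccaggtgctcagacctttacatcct
CYP1A1, promoter: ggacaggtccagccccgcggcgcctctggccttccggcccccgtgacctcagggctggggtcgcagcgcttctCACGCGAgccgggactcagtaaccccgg
CYP1A1, distal: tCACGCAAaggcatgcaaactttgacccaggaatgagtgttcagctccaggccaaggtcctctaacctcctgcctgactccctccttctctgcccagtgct
CYP3A4, upstream: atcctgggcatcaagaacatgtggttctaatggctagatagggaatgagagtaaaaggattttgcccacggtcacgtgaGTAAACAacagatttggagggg
CYP3A5, upstream: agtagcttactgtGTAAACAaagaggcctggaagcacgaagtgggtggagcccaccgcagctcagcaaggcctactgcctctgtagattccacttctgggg
CYP27C1, upstream: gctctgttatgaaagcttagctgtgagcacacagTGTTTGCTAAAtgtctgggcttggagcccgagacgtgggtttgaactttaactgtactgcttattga
CYP2E1, upstream: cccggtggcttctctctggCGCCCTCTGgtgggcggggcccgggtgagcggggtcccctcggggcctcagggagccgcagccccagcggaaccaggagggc

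Of the P450 genes, 23 of 56 had a TSS peak, which is 41.1% (exact binomial 95% interval 28.1 to 55.0%), whereas 61.5% of all protein-coding genes had one. The interval, which covers counting error only, did not reach the share of all genes. Most P450 genes nevertheless had some peak nearby. A peak with its summit in the neighbourhood was present for 51 of 56 P450 genes (91.1%, 95% interval 80.4 to 97.0%), against 88.3% of all protein-coding genes, a value inside the interval. For 28 P450 genes a peak lay in the neighbourhood but none at the TSS. At a stricter -log10 q of at least 20, a TSS peak was left at 9 of 56 P450 genes, or 16.1%, against 50.7% of all genes, and at 0 of the 21 xenobiotic genes.

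The TSS peaks of P450 genes were also low. The height of a peak is given as its deposited fold enrichment over the surrounding background. It was taken as the ratio of fragments at the summit to background with a constant added to both, a formula assumed here. Folds from few fragments are therefore limited by that number and are not plain ratios to background. The highest fold at the TSS had a median of 10.1 in the 23 P450 genes with a TSS peak (quartiles 7.07 and 18.8) and of 17.9 in the protein-coding genes with one (quartiles 12.98 and 22.8). This highest fold was under 10 in 47.8% of the P450 genes with a TSS peak, against 13.3% of all protein-coding genes with one. At the other end, 6 of 56 P450 genes, among them CYP39A1, CYP2R1 and CYP20A1, reached a fold of 20 or more, against 23.9% of all protein-coding genes. Counted over genes with a TSS peak only, the shares were 26.1% for P450 genes and 38.9% for all. Fold and p-value together gave whole numbers of fragments for 99.6% of peaks, and by this count the TSS peaks of P450 genes rested on 5 to 110 fragments each, except that of CYP2D6, which gave no whole number.

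**Figure D1:**
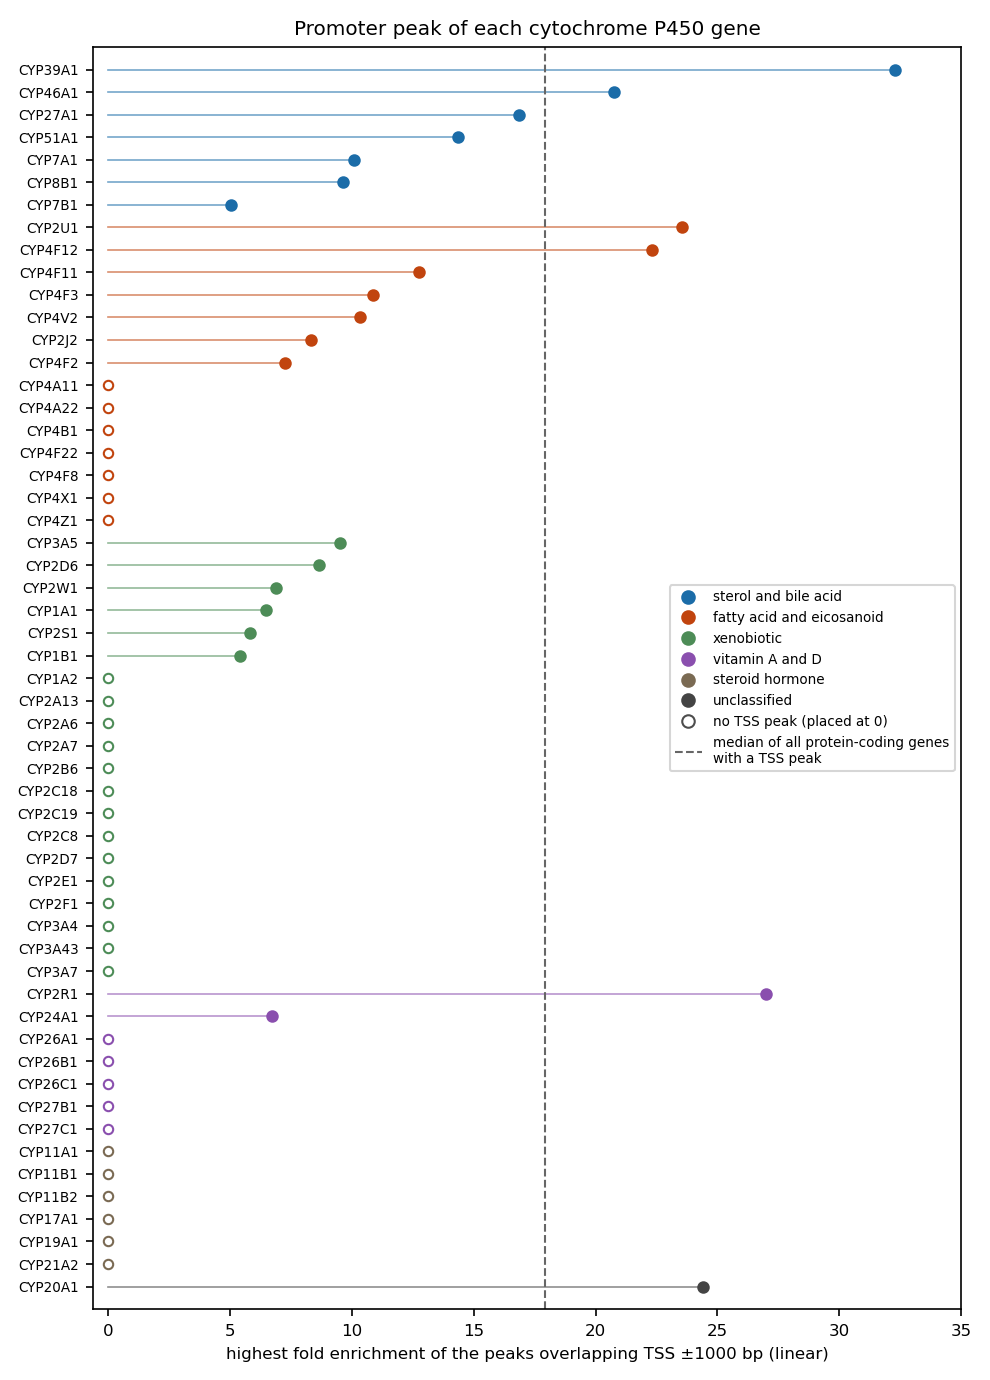
Highest fold enrichment of the peaks overlapping the TSS window (x axis, linear) for 55 of the 56 P450 genes (rows, grouped by role). Filled points are genes with a TSS peak, open points at 0 are genes without one, and the dashed line is the median of 17.9 over all protein-coding genes with a TSS peak. All 7 sterol and bile acid genes have a point, from 5.05 to 32.3, while the 6 xenobiotic genes with a TSS peak stay at 9.52 or below.

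The P450 genes were grouped by role, with earlier results of these data known. Genes of CYP1 to CYP3 were taken as xenobiotic, except CYP2J2, CYP2R1 and CYP2U1. All CYP4 genes, with CYP2J2 and CYP2U1, were taken as fatty acid and eicosanoid genes. Both groups thus follow family more than the known substrate of each gene. In the sterol and bile acid group 7 of 7 genes had a TSS peak (95% interval 59.0 to 100%). In the fatty acid and eicosanoid group it was 7 of 14, or 50.0% (interval 23.04 to 76.96%). The xenobiotic group had 6 of 21, or 28.6% (interval 11.3 to 52.2%), which lay below the 61.5% of all protein-coding genes. In the vitamin A and D group 2 of 7 genes had one, and in the steroid hormone group 0 of 6 did, for which the exact interval reaches up to 45.9%. The interval of the sterol and bile acid group overlapped neither that of the xenobiotic group nor that of the steroid hormone group, and every other pair of these groups overlapped. The sterol and bile acid interval also held the 61.5% of all genes. At -log10 q of at least 5, where CYP7B1 lost its peak of 5 fragments, the sterol and bile acid group had 6 of 7. The intervals were not compared there, so that their separation is known only with that peak counted. The median GC content within 500 bp of the TSS was 64.3% in the sterol and bile acid group, 54.3% in the xenobiotic group and 54.1% in the steroid hormone group, and its part in the differences between groups was not tested.

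**Figure D2:**
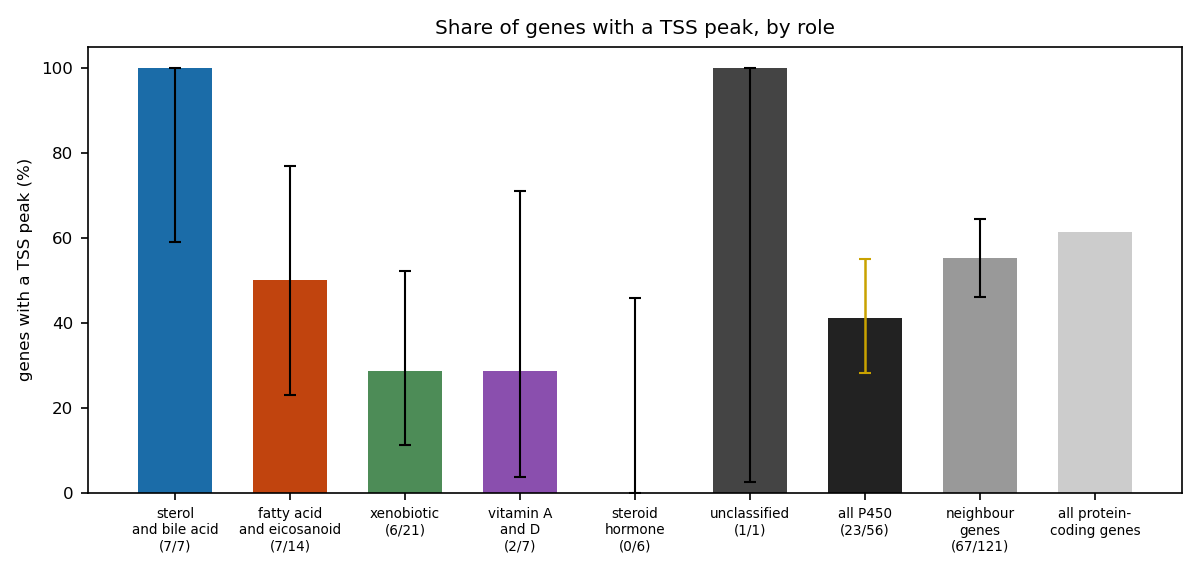
Share of genes with a TSS peak (y axis, percent) for the 6 role groups of the P450 genes, all 56 P450 genes, the 121 protein-coding genes with a TSS within 100 kb of a P450 gene, and all 20033 protein-coding genes. Bars are shares and error bars exact binomial 95% intervals; the sterol and bile acid bar is at 100% and the xenobiotic bar at 28.6%.

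The sterol and bile acid group spanned the whole range of heights. CYP39A1, which hydroxylates an oxysterol made from cholesterol in the brain, had the highest TSS fold of the family, 32.3 from 65 fragments, above 98.3% of the TSS folds of all genes. Its summit, in the sequence given above, lay 78 bp upstream of the TSS, and the same peak overlapped the TSS window of SLC25A27, so that it cannot be assigned to one gene. CYP46A1, a cholesterol hydroxylase best known from neurons, had a fold of 20.8. CYP27A1, the mitochondrial sterol hydroxylase of bile acid synthesis, had a fold of 16.9 with its summit 30 bp upstream. CYP51A1, which removes a methyl group from lanosterol in cholesterol synthesis, had 3 peaks in its window, of folds 14.4, 12.03 and 7.40.

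The 3 remaining genes of the group, which act in bile acid synthesis in the liver, had lower TSS peaks. CYP7A1, the rate-limiting enzyme of bile acid synthesis, had a fold of 10.1 from 11 fragments. CYP8B1, which directs the pathway to cholic acid, had a fold of 9.63 from 13 fragments, its summit 5 bp from the TSS. CYP7B1, the oxysterol hydroxylase of the alternative pathway, had a fold of 5.05 from 5 fragments, the weakest TSS peak of all P450 genes. The TSS of CYP7A1 was also the most AT-rich of the family, with a GC content of 32.2% within 500 bp, while that of CYP7B1 had 64.3%. CYP8B1 was surrounded by 4 further peaks of folds 12.1 to 16.3, each higher than its own TSS peak.

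Among the fatty acid and eicosanoid genes, the promoters with peaks belonged to CYP2J2, CYP2U1, CYP4V2 and 4 genes of the CYP4F subfamily. CYP2U1, a fatty acid hydroxylase, had a fold of 23.5 with the summit 14 bp inside its first exon. CYP4V2, the fatty acid hydroxylase altered in Bietti crystalline dystrophy, had a fold of 10.4. CYP2J2, an epoxygenase of arachidonic acid, had a fold of 8.34. The subfamily CYP4F is described with its cluster below, and the 7 genes of the group without a TSS peak were CYP4A11, CYP4A22, CYP4B1, CYP4F22, CYP4F8, CYP4X1 and CYP4Z1.

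Xenobiotic genes with a TSS peak were CYP1A1, CYP1B1, CYP2D6, CYP2S1, CYP2W1 and CYP3A5, with folds of 5.42 to 9.52 and a median of 6.68. CYP1A1, which oxidizes polycyclic aromatic compounds and is induced through the aryl hydrocarbon receptor, had a fold of 6.47 from 12 fragments with the summit 526 bp upstream. Peaks of folds 10.7 and 6.46, without that core, lay 1430 bp and 1716 bp downstream in its intron 1. Its relative CYP1B1 had 5.42 from 6 fragments, 638 bp upstream. CYP2W1, known mainly from fetal and tumor tissue, had 6.88, and CYP2S1 had 5.81 from 7 fragments. In CYP2D6, which oxidizes many antidepressants, the summit lay 884 bp upstream with a fold of 8.65, and in CYP3A5 it lay 760 bp downstream, in intron 1, with a fold of 9.52. These 2 peaks and that of CYP1B1 fell outside a window of 500 bp, so that 20 of 56 P450 genes had a TSS peak by that window, against 59.2% of all genes.

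The 15 xenobiotic genes without a TSS peak included several of the main drug-oxidizing genes of adult liver. CYP3A4 had its nearest summit 11083 bp upstream, at a fold of 11.2 from 17 fragments, and further peaks in intron 3 (fold 14.5) and 41.3 kb from its TSS beyond the gene end (fold 13.8). CYP2E1, which oxidizes ethanol, had 1 peak, 7031 bp upstream, of fold 15.3 from 23 fragments, which overlapped the window around another annotated CYP2E1 transcript start. CYP1A2, which clears caffeine, had peaks 11517 bp and 22329 bp downstream and 17751 bp upstream of its TSS, the last of which is the distal CYP1A1 peak shown above. CYP2B6 had 1 peak 16560 bp upstream, of fold 9.36. CYP2A6, which oxidizes nicotine, had 1 peak 18306 bp downstream of its TSS, of fold 17.7. CYP3A7, the fetal liver form, had its nearest summit in intron 2, at a fold of 13.4. Others without a TSS peak were CYP2A7, CYP2A13, CYP2C8, CYP2C18, CYP2C19, CYP2D7, CYP2F1 and CYP3A43.

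The vitamin genes differed widely. CYP2R1, the main vitamin D hydroxylase of the liver, had a fold of 27 from 59 fragments, above 90.5% of the TSS folds of all genes, and CYP24A1, which inactivates vitamin D, had 6.74 from 13 fragments. CYP27B1, which activates vitamin D in the kidney, CYP27C1 and the retinoic acid hydroxylases CYP26A1, CYP26B1 and CYP26C1 had none. CYP26A1 came close, with a summit of fold 15.7 at 1932 bp upstream, and was the only gene of the highest tertile of GC content without a TSS peak. CYP27B1 stood among 5 peaks, of which 4 overlapped the TSS windows of other protein-coding genes, with CDK4, METTL1, TSFM and TSPAN31 as the nearest. CYP20A1, whose substrate is unknown and which was left unclassified, had 2 TSS peaks of folds 24.4 and 19.8, the first from 110 fragments, more than at any other P450 peak.

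None of the steroid hormone genes, which are typical of adrenal gland and gonads, had a TSS peak. CYP11A1, which cuts the side chain of cholesterol, came nearest with a summit 1401 bp downstream of its TSS, in intron 1 (fold 6.94). CYP17A1 had a summit at 2289 bp (fold 10.8) in intron 2. CYP19A1, the aromatase gene, had the most peaks of any P450 neighbourhood, 9, of which 8 lay in its long first intron and the nearest 19519 bp from the canonical TSS. The window around the start of another annotated transcript did overlap a peak in both CYP11A1 and CYP19A1. CYP21A2 had 1 peak 9938 bp downstream of its TSS (fold 23.3), CYP11B1 had 1 at 14788 bp (fold 8.51), and CYP11B2 had none in its neighbourhood.

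By family, TSS peaks were found at 2 of 3 CYP1 genes, 6 of 17 CYP2 genes (35.3%, 95% interval 14.2 to 61.7%), 1 of 4 CYP3 genes and 5 of 12 CYP4 genes (41.7%, interval 15.2 to 72.3%). The share of all protein-coding genes, 61.5%, lay inside the CYP2 interval, narrowly, and inside the CYP4 interval. Both CYP7 genes, CYP8B1 and CYP51A1 had one, as did 1 of 3 CYP27 genes and 4 of 10 genes of other families, and 0 of 3 CYP11 genes did. The interval of every family with 1 to 4 genes spanned more than 70 percentage points, so that these families cannot be told apart by their shares. Within CYP2, 5 of the 6 promoters with a peak belonged to subfamilies with a single member here, J, R, S, U and W, and CYP2D6 was the other, while the single genes of B, E and F had none.

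Where the P450 genes formed clusters, with gaps of at most 250 kb, 8 of 33 clustered genes had a TSS peak (24.2%, 95% interval 11.1 to 42.3%). Among genes that stood alone it was 15 of 23 (65.2%, interval 42.7 to 83.6%), against 61.5% of all protein-coding genes. The 2 intervals stayed apart only by a narrow margin, 42.3 against 42.7%, and that of the single genes held the share of all genes. CYP7B1, a single gene, lost its TSS peak of 5 fragments at -log10 q of at least 5, where these intervals were not computed. Their separation is thus known only with that peak counted. The median GC content within 500 bp of the TSS was 54.3% in clustered and 61.1% in single genes, and its part in the difference in TSS peaks was not tested. The 9 clusters differed widely in peaks. CYP4F, on chromosome 19, held 18 peaks in 303 kb of neighbourhood, or 5.95 per 100 kb, and 4 of its 6 genes had a TSS peak. CYP3A, on chromosome 7, held 12 peaks, or 4.72 per 100 kb, of which 1 was at a member TSS. CYP4A/4B/4X/4Z, on chromosome 1, held 4 peaks in 320 kb, or 1.25 per 100 kb. Over all P450 neighbourhoods, 133 peaks gave 3.59 per 100 kb, against 2.97 per 100 kb over the neighbourhoods of all protein-coding genes. Counted per gene, the order was the reverse. The median was 2 peaks in the neighbourhood of a P450 gene (quartiles 1 and 4) and 4 in that of a protein-coding gene (quartiles 2 and 6). These counts were not matched for gene length. No peak in the 9 clusters lay at the TSS of a protein-coding gene outside the family, whereas 8 did around the single genes, the CYP39A1 peak included.

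**Figure D3:**
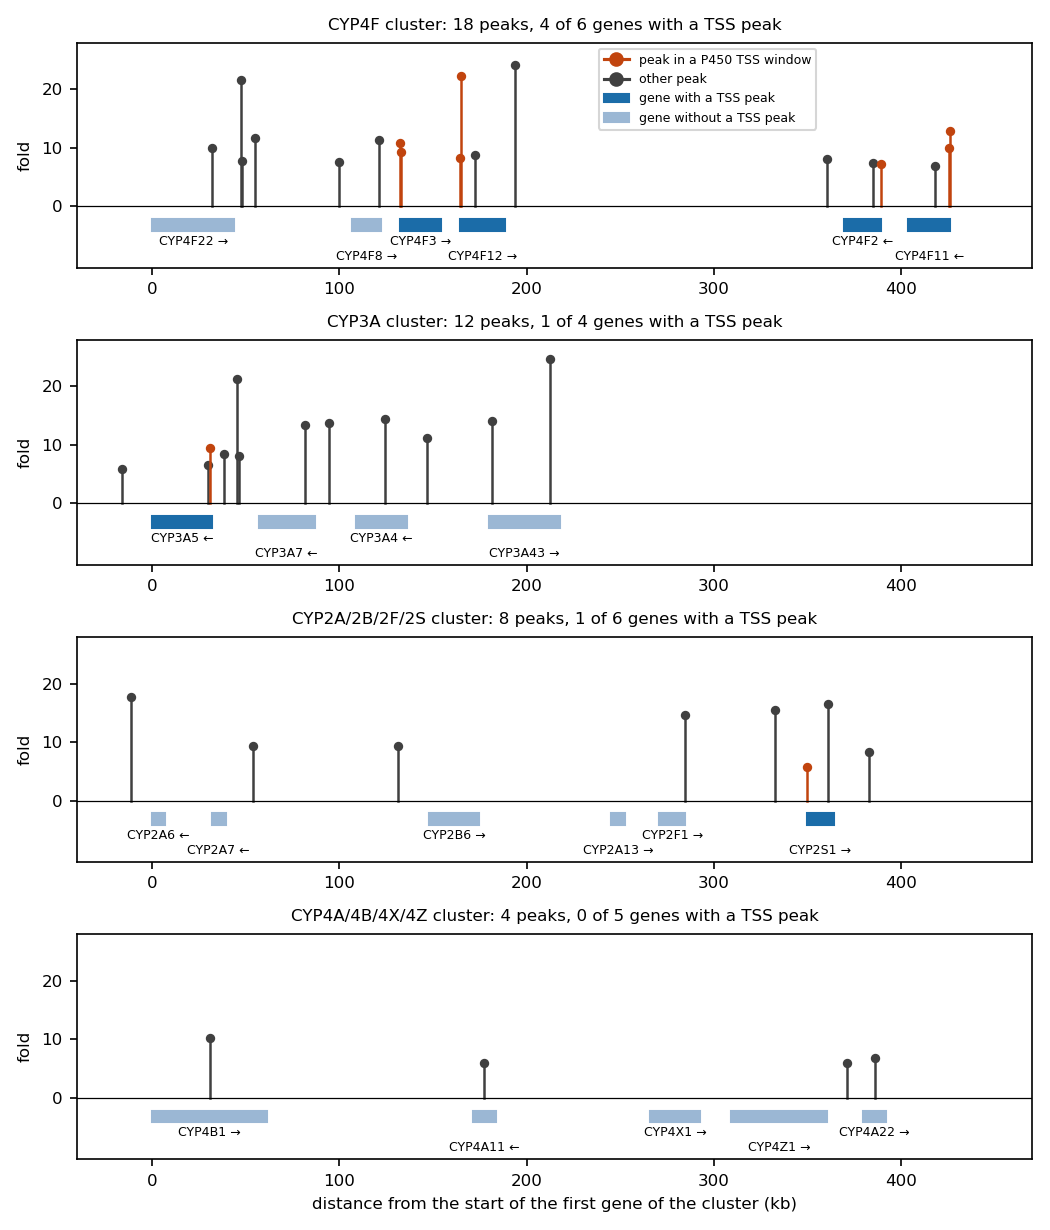
Peaks and genes of 4 P450 clusters to scale, with the distance from the start of the first gene on the x axis (kb) and the fold enrichment of each peak as a stem (y axis). Red stems are peaks in a P450 TSS window, grey stems other peaks; boxes are gene bodies, dark with and pale without a TSS peak, and arrows give the strand. CYP4F carries 18 peaks in 303 kb of neighbourhood, while CYP4A/4B/4X/4Z carries 4 in 320 kb.

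In the CYP4F cluster, which codes for fatty acid and leukotriene hydroxylases, the genes with a TSS peak were CYP4F2, CYP4F3, CYP4F11 and CYP4F12. CYP4F12 was the strongest, at 22.3 from 50 fragments 379 bp downstream of the TSS, with a second peak of 8.31 at 66 bp upstream. CYP4F11 had folds of 12.8 and 9.96, and CYP4F3, which degrades leukotriene B4, had 10.9 and 9.26. CYP4F2, which also oxidizes vitamin K, had 7.27 from 9 fragments. CYP4F8 and CYP4F22, known from seminal vesicle and skin, had none, and the nearest summits to their TSS were 6871 bp and 29068 bp away.

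In the CYP3A cluster the highest peaks stood outside the TSS windows. A peak of fold 24.8 lay in intron 10 of CYP3A43, 32624 bp from its TSS, and had the odorant receptor gene OR2AE1 as its nearest protein-coding TSS. A peak of fold 21.2 lay 13555 bp upstream of CYP3A5, between it and CYP3A7, and is the CYP3A5 sequence given above. CYP3A43 also had a summit of fold 14.03 in its first intron, 1673 bp from the TSS. The 12 peaks of the cluster ranged in fold between 5.89 and 24.8 with a median of 12.3.

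The CYP2A/2B/2F/2S cluster had 8 peaks, and its single TSS peak, of CYP2S1, was the lowest of them at 5.81. Peaks of folds 15.4 and 16.5 lay 16899 bp upstream and 11219 bp downstream of the TSS of CYP2S1. In CYP2F1 the summit was in coding exon 10, at a fold of 14.7. CYP2A13, a gene of the airways, had no peak in its neighbourhood. CYP1A, on chromosome 15, was the densest cluster with 6 peaks in 77.1 kb, or 7.79 per 100 kb.

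Of the 33 P450 genes without a TSS peak, 7 had a summit within 5 kb and 8 had none within 20 kb of the TSS. Just inside the window of 1000 bp were CYP3A5 at 760 bp and CYP2D6 at 884 bp, and just outside were CYP11A1 at 1401 bp and CYP3A43 at 1673 bp. A window of 2500 bp added CYP11A1, CYP17A1, CYP26A1, CYP27B1 and CYP3A43. The median distance to the nearest summit was 11326 bp in P450 genes without a TSS peak and 16770 bp in all protein-coding genes without one. The 5 genes with no peak in the neighbourhood were CYP11B2, CYP2A13, CYP2C19, CYP2C8 and CYP4X1, whose nearest summits were 22.3 to 88.6 kb away. CYP2C8 and CYP2C19 metabolize drugs in adult liver, and their TSS lay 41.4 and 82.0 kb from a summit.

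**Figure D4:**
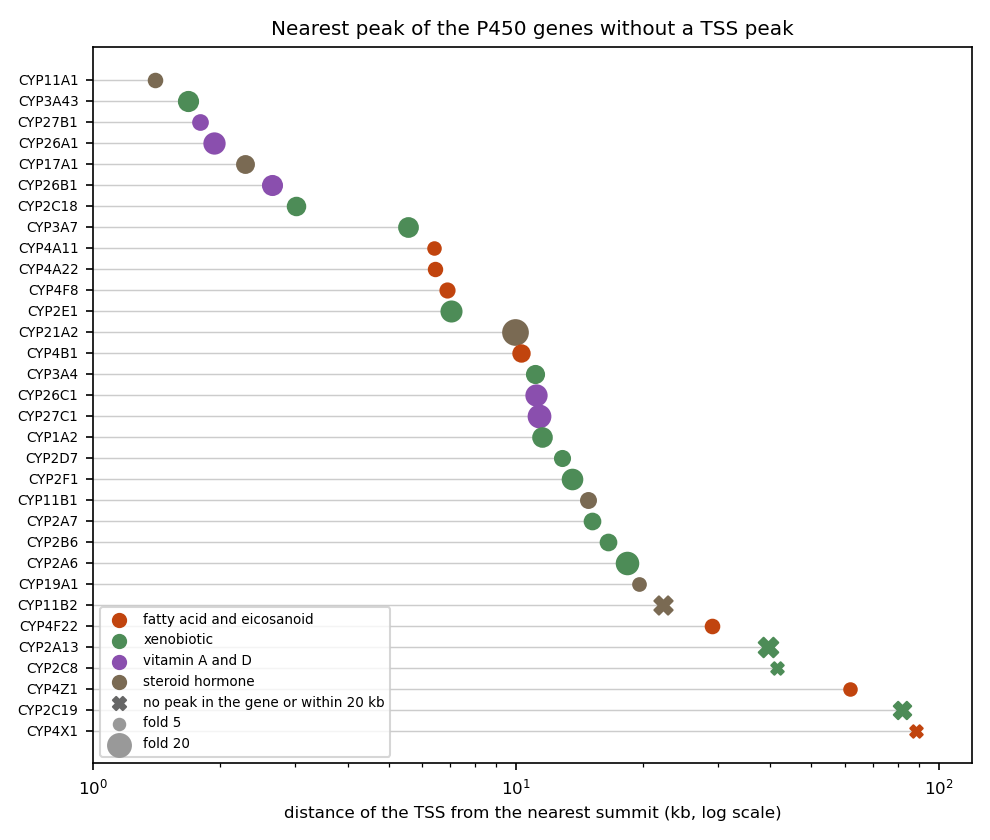
Distance of the TSS from the nearest summit (x axis, kb, log scale) for 32 of the 33 P450 genes without a TSS peak, ordered by that distance. Colors give the role, point area grows with the fold of the nearest peak, and crosses mark the 5 genes with no peak in the gene or within 20 kb; CYP11A1 is nearest at 1.40 kb and CYP4X1 farthest at 88.6 kb.

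Away from the canonical TSS of every annotated gene, P450 neighbourhoods held 86 peaks, 2.32 per 100 kb, against 1.99 per 100 kb around all protein-coding genes. Their median fold was 11.8 (quartiles 8.26 and 14.8). It was 9.80 (quartiles 7.44 and 13.8) for all peaks away from a TSS on chromosomes 1-22, X and Y, near a protein-coding gene or not. Of the 86 peaks, 13 overlapped a window around the start of another annotated transcript, among them those of CYP2E1 and CYP4A11, and without them 73 were left, 1.97 per 100 kb with a median fold of 12.3, against 1.74 per 100 kb and a median of 9.72 for all genes and peaks. The TSS peaks of P450 genes were thus lower in median than those of all genes, while the distal peaks around them were not lower than distal peaks genome-wide. Folds of distal peaks in protein-coding neighbourhoods alone were not compared. Over all 133 peaks the median fold was 11.4, against 10.7 for the 60474 peaks on chromosomes 1-22, X and Y, and the median number of fragments was 18 against 17.

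The distal peak of highest fold lay 46.4 kb from the TSS of CYP46A1, beyond the gene end, at 30.6 from 92 fragments. After the CYP3A43 peak described above followed one 29.1 kb from the TSS of CYP4F12 (24.1), nearest to the odorant receptor gene OR10H2, and the one at CYP21A2 (23.3). The CYP4F22 neighbourhood had a peak of 21.7 at 47.4 kb, beyond the gene end. The peak upstream of CYP3A5 came next, then one 40.4 kb from CYP24A1 (20.5) and one in intron 7 of CYP4V2 (20.04). CYP11A1 had a peak of 19.6 at 14945 bp upstream, and CYP2W1 one of 19.6 at 10119 bp downstream of its TSS, both with a match to the CTCF core. For 4 of these 10 peaks the nearest P450 gene had no TSS peak.

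Genes with a GC-rich TSS had a TSS peak more often over all genes, and the P450 genes were poorer in GC. Within 500 bp of the TSS, the P450 genes had a median GC content of 56.2% and all protein-coding genes of 61.3%. In the lowest tertile of GC content over all genes, 5 of 29 P450 genes had a TSS peak (17.2%, 95% interval 5.85 to 35.8%), against 35.7% of all genes. In the middle tertile it was 11 of 19 (57.9%, interval 33.5 to 79.7%), against 70.8%, and in the highest tertile 7 of 8 (87.5%, interval 47.3 to 99.7%), against 78.2%. In each tertile the share of all genes lay inside the interval of the P450 genes, in the lowest by a narrow margin. Weighting the tertiles as the P450 genes fill them gave 53.7% for all genes, which was inside the interval of 28.1 to 55.0%. The 5 P450 genes of the lowest tertile with a TSS peak were those of CYP2J2, CYP3A5, CYP4F2, CYP7A1 and CYP8B1.

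**Figure D5:**
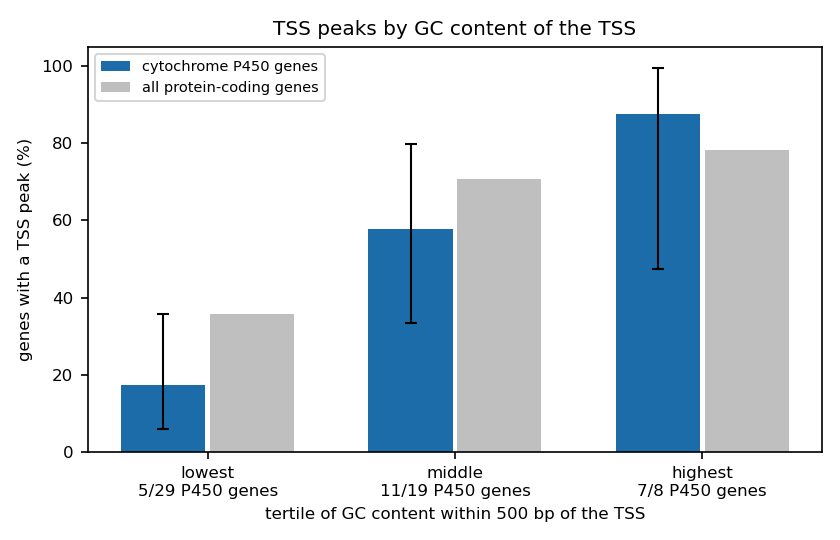
Share of genes with a TSS peak (y axis, percent) in tertiles of GC content within 500 bp of the TSS (x axis), for the P450 genes (blue, with exact binomial 95% intervals) and all protein-coding genes (grey). The P450 share is 17.2% in the lowest, 57.9% in the middle and 87.5% in the highest tertile.

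The protein-coding genes with a TSS within 100 kb of a P450 gene gave a comparison in the same chromosomal surroundings. P450 genes had a TSS peak in 41.1% and these neighbours in 67 of 121 cases, or 55.4% (95% interval 46.1 to 64.4%), and the 2 intervals overlapped. The neighbours had a median GC content at the TSS of 61.3%, as all genes did. Their TSS peaks were high, with a median fold of 20.04 against 10.1 at the P450 genes. Around CYP4 genes only 5 of 18 neighbours had a TSS peak, against 14 of 26 around CYP2 genes and 6 of 9 around CYP3 genes.

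Genes of electron transfer to P450 enzymes and of heme metabolism were also examined. All 11 redox and heme genes tested had a TSS peak (95% interval 71.5 to 100%), against 61.5% of all genes, with a median fold of 17.6. POR, the reductase shared by the microsomal enzymes, had the highest fold of them at 24.2 from 67 fragments, followed by CYB5B at 24.0, the ferredoxin reductase gene FDXR at 19.1 and CYB5A at 18.6. The others were ALAS1, which starts heme synthesis, FECH, HMOX1, which degrades heme, FDX1, FDX2, PGRMC1 and CYB5R3. The 11 genes had a median GC content within 500 bp of the TSS of 63.4%, against 61.3% in all genes. TBXAS1 and PTGIS, the 2 P450 genes outside the naming rule, had no TSS peak.

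Of 23 genes for transcription factors and receptors known to regulate P450 genes, 21 had a TSS peak (91.3%, 95% interval 72.0 to 98.9%), against the same 61.5% of all genes. Their median GC content within 500 bp of the TSS was 66.4%, against 61.3% in all genes, and its part in this difference was not tested. ARNT, the partner of the aryl hydrocarbon receptor, had the highest fold at 24.7, followed by FOXA3 at 24.3, HNF4A at 18.3 and NR1I3, the constitutive androstane receptor, at 17.7. NR1I2, the xenobiotic receptor PXR that induces CYP3A4, had the lowest at 6.59 from 8 fragments. The bile acid receptor gene NR1H4 and the vitamin D receptor gene VDR lacked a TSS peak, with nearest summits 1.505 and 4.29 kb away. Of the cell type markers, 12 of 14 hepatocyte genes had a TSS peak (85.7%, 95% interval 57.2 to 98.2%), all except ALB and FGB. The 61.5% of all genes lay inside that interval. Blood genes had one in 0 of 5 cases and fibroblast and endothelium genes in 0 of 5, each with an interval reaching up to 52.2%. HNF4A and FOXA2 were among the genes that stood in both the marker and the regulator list.

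Motif letters near the summits were counted in P450 peaks and in all peaks. Within 50 bp of the summit and on both strands, TGTTTNC was found in 20 of 133 P450 peaks (15.0%, 95% interval 9.43 to 22.3%), against 13% of all peaks, and CAGNNGGCG in 9 (6.77%) against 5.64%. TTGCNNAA was found in 5 (3.76%) against 6.32%, and the AP-1 motif TGANTCA in 4 (3.01%) against 5.58%. The XRE core TNGCGTG was found in 2 (1.504%) against 1.54%, and both of those peaks were at CYP1A1. The HNF4 motif CAAAGTCCA, the NR5A2 motif TCAAGGTCA and the sterol response element TCACNCCAC were found in 0 of 133, for which the exact interval reaches up to 2.74%, against 1.41%, 0.423% and 0.486% of all peaks. The share of all peaks lay inside the interval of the P450 peaks for each of these motifs.

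Because clustered P450 genes are near copies of each other, the sequence of each TSS and summit was compared with the whole genome. A copy of at least 95% identity over at least 90% of a window reaching 250 bp from the TSS on either side was found for 5 genes, CYP21A2, CYP2D6, CYP2D7, CYP4A11 and CYP4A22, of which CYP2D6 had a TSS peak. Without these 5 genes, 22 of 51 P450 genes (43.1%, 95% interval 29.4 to 57.8%) had a TSS peak. Of the 133 summits, 9 had such a copy elsewhere within their 50 bp to either side. The summit upstream of CYP4F8 had 538 copies and lay in a repeated sequence, so its assignment to this place is uncertain. The coding exon 10 peak of CYP2F1 had a copy of 99.0% identity in CYP2F2P that also lay in a peak. The single peaks of CYP2A6 and CYP2C18 each had a copy of 97.0% identity, which lay in a peak for CYP2C18 but not for CYP2A6. The CYP4F11 peak 543 bp downstream of the TSS had 2 copies of up to 95.05% identity, neither in a peak. The single peak of CYP4B1 had 10 copies of up to 96.0% identity, 4 of them in a peak. The CYP3A5 peak 6518 bp upstream had 11 copies of up to 96.0% identity, 2 of them in a peak.

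One pair of peaks fell on copies of the same exon. CYP4A11 and CYP4A22, fatty acid hydroxylase genes on opposite strands of the chromosome 1 cluster, each had a summit in coding exon 6, at 6407 bp and 6429 bp from the TSS, with folds of 5.95 and 6.81 and 6 and 7 fragments. The CYP4A22 window at chr1:47143820-47143920, plus strand, and its CYP4A11 counterpart at chr1:46934996-46935096, minus strand, are shown because reads from near-identical copies are uncertain in their placement, and its part in these peaks was not tested. They were 97.0% identical, and capitals mark the 3 bases that differ.
CYP4A22, exon 6: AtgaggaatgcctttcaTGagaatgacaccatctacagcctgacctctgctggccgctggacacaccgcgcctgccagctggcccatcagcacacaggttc
CYP4A11, exon 6: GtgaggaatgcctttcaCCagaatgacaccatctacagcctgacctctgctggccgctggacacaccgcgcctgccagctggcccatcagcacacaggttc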

How the data were processed

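HepG2 cells were profiled by bulk ATAC-seq; 1 peak list, of the library with 0.1% FA and cryopreservation, was used, and tracks of the other libraries were not used here. By the study's methods, adapters were cut with cutadapt, alignment to GRCh38 used Bowtie2 within snakePipes, duplicates were dropped, and MACS2 called the peaks at its standard settings. The methods also name uniquely mapped pairs under a mapping quality limit. The part of that limit in missing peaks at near-identical copies was not tested. Also named in the labels are bcl2fastq and deepTools 3.5.5. No MACS2 version and no shift to the Tn5 cut site is stated, and peak names in the list refer to a short-fragment alignment that the methods do not describe. The authors deposited for each peak a score, about 10 times the -log10 q-value. The deposited ratio is the fold enrichment over local background, and the authors also deposited -log10 of the p-value and of the q-value at each summit.

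Of 60628 peaks, 60474 lay on chromosomes 1-22, X and Y. They were placed on GENCODE 44 genes (Python 3.11.15, pandas 2.3.3, scipy 1.17.1, pysam 0.24.0). Fragments at a summit were solved from fold and p within 0.01 fragment; overlap, motif and fragment steps were tested on simulated data. Shares carry exact Clopper-Pearson 95% intervals. With 1 library no test was possible, and the depth is known only as fragments per peak. Neighbourhoods were merged per group, P450 genes with gaps of at most 250 kb formed a cluster, and copies were searched with blastn 2.17.0. RefSeq promoter and protein tables were not used. Named were the P450 genes, except 1 that is not reported here, with values for each with a TSS peak, the 10 distal peaks of highest fold and, of other lists, genes lacking a TSS peak and up to 4 of highest fold. The members, roles and lists were chosen with earlier results of these data known. Windows, distances, a stricter q-value, GC and motif ranges were varied.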

Additional observations from a re-analysis of the deposited data

How the results depend on the processing

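Of 226 alternative values of 43 results, 171 stayed near the value reported and 55 moved, where near means inside the 95% interval of a share or median (10.1 to 12.7 for the median fold of P450 peaks) and within 1.5 times a count. Leaving out peaks at any transcript start, chosen after seeing the data, gave 73 distal P450 peaks. A -log10 q of at least 20 moved the most: it left TSS peaks at 16.1% of P450 genes (9 of 56), against 50.7% of all genes, at 0% of the CYP1, CYP3, CYP7 and CYP8 families and of the xenobiotic group, 11.8% of CYP2, 21.4% of the fatty acid and eicosanoid group and 57.1% of the sterol and bile acid group. It left any peak at 64.3% of P450 genes, 62 P450 peaks of median fold 16.01, and 18 peaks in clusters. A TSS window of 500 bp left 0% of CYP3. Windows of 500 to 2500 bp gave 35.7 to 50.0% of P450 genes against 59.2 to 65.6% of all genes, and the start of any transcript gave 51.8% against 66.9%, so that the lower P450 share remained under each setting run. Counting summits in gene bodies only gave 57.1% of genes with any peak, 54 peaks of median fold 9.99, and 24 peaks in clusters. With 5 kb these were 78.6%, 83 peaks and 35 in clusters, and with 50 kb 98.2%, 229 peaks and 93 in clusters. A motif range of 25 bp gave 6.77% for FOXA, 0.752% for AP-1, 2.26% for CTCF and 0% for XRE, and 100 bp gave 9.02% for AP-1. No paired analysis was possible because 1 library was used. Limits: 1 library without replicate; peaks of 5 to 10 fragments are near the detection limit, and a missing peak says only that none was called at this depth.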
